A study of Homo sapiens with 9 samples.

Results

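HL-60 cells that carried a RhoH construct and received no 4-hydroxytamoxifen (4-OHT) were compared with HL-60 cells that carried a GFP construct and received 100 nM 4-OHT. The groups were taken from the sample titles: 3 arrays read HL-60-RhoH no 4-OHT (uninduced RhoH) and 3 read HL-60-GFP + 4-OHT (GFP), 6 of the 9 arrays of the series. The other 3 arrays, of RhoH cells with 100 nM 4-OHT (induced RhoH), entered the fit and are given beside the compared groups. All cells were HL-60 clone 15, a subline of the established promyelocytic leukaemia line HL-60 that serves as a model of eosinophil precursors, and all carried a lentiviral construct that 4-OHT switches on. RhoH cells had no 4-OHT in this comparison and GFP cells had it, and no array of GFP cells without 4-OHT was among those used here. Exposure to 4-OHT, the transduced population, leak of the RhoH construct and GFP itself therefore cannot be told apart in any result given here. The design text calls the arrays of a group biological replicates and does not say whether each came from its own transduction. The study asked which genes RhoH changes, with these groups as its 2 controls. Each gene was read from its probe set with the highest mean over the 9 arrays, which gave 14778 named genes.

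Promyelocytes are granulocyte precursors that load their azurophil granules with antimicrobial proteases, and eosinophil precursors add a peroxidase and other cationic proteins. As cells move toward the monocyte fate they take up CD14, Toll-like receptors and chemoattractant receptors, and on activation they release chemokines through NF-kB and AP-1. RhoH is a small GTP-binding protein of haematopoietic cells that lacks GTPase activity. 4-OHT binds the oestrogen receptor and drives the fusion proteins built from its ligand-binding domain.

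Values are log2 signals, so a difference of 1 is a 2-fold difference in signal. Median signal was 5.43 to 5.55 on the 9 arrays. Across probe sets (features, not replicates), arrays correlated at 0.995 to 0.996 within GFP, 0.980 to 0.995 within uninduced RhoH and 0.964 to 0.983 between the 2 groups. Uninduced RhoH replicate 1 stood apart: its SD over genes from its group mean was 0.206, against 0.130 and 0.138 for the other two and at most 0.0959 for a GFP array. Counts are also given without the replicate 1 arrays of both RhoH groups. Induced replicate 3, which was kept, deviated as much as induced replicate 1 (SD 0.204 and 0.200). The line's identity was checked against marker genes. All 4 measured markers of granulocyte precursors (MPO, PRTN3, AZU1, CTSG) were above the array median on all 6 arrays, with summed log2 signals of 49.1 to 49.3 in uninduced RhoH and 42.3 to 42.5 in GFP. Of eosinophil markers 2 of 6 were measured, EPX and CLC, and they too were above the median on all 6 arrays. The T cell marker CD2 read 5.52 to 5.60 and 5.56 to 5.60, and it and the megakaryocyte marker PF4 were also above the median on all 6 arrays, so that being above the median does not mark a lineage. No marker on the B cell and erythroid lists was measured as a named gene.

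The gene of the construct did not follow the labels in a simple order. RHOH read 5.23, 5.25 and 5.15 in uninduced RhoH, 5.60, 5.73 and 5.45 in induced RhoH and 5.90, 5.94 and 5.94 in GFP. The 3 uninduced arrays lay below all 3 GFP arrays, and the GFP arrays lay above the induced RhoH arrays. Uninduced RhoH was 1.64-fold lower than GFP (log2 difference -0.72, SE 0.09, limma adjusted p = 0.000420). A two-sided exact permutation test of the 6 arrays gave p = 0.1, the smallest that 3 arrays against 3 allow. Induced RhoH was higher than uninduced RhoH by 0.38 (adjusted p = 0.0451) and differed from GFP by -0.33 (adjusted p = 0.0717), in comparisons that share arrays with this one and called 3.78% and 4.49% of all genes. On the 6 compared arrays RHOH lay between percentile 25.1 and percentile 41.5 of all genes. Which part of the transcript this probe set reads, and whether it reads RNA of the construct, is not given in the sources used here, so it does not check the labels. Directions below rest on the arrays as labelled.

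Uninduced RhoH and GFP cells differed in 2258 of 14778 genes (15.3%) at a limma adjusted p under 0.05, here called genes. Of these 888 were higher in uninduced RhoH (6.01%) and 1370 were lower (9.27%). Large differences were mostly in the lower direction: 353 genes were at least 2-fold lower (2.39%) and 111 at least 2-fold higher (0.751%), 60 were at least 4-fold lower and 7 at least 4-fold higher, and 14 were at least 8-fold lower with none as far in the other direction. The 3 arrays of each group did not overlap for 2841 genes with uninduced RhoH above (19.2%) and 2670 with it below (18.1%). The median log2 difference over all genes was 0.05. Without the 2 RhoH replicate 1 arrays the count was 2590, split evenly into 1298 higher (8.78%) and 1292 lower (8.74%), and 2024 of the 2258 genes were called the same way. Without these arrays the higher calls rose in number while the lower calls changed little. Leaving out uninduced replicate 1 alone gave 881 higher and 1089 lower calls. Leaving out induced replicate 1 alone, an array outside the comparison, gave 1072 higher and 1456 lower. Neither single omission gave the even split. Weighting the arrays by their spread gave 2358 higher and 1968 lower calls, and renormalizing the quantiles gave 1342 higher and 1456 lower. Among calls of at least 2-fold the lower ones were more numerous in every alternative run, with 311 to 393 lower against 100 to 131 higher.

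**Figure D1:**
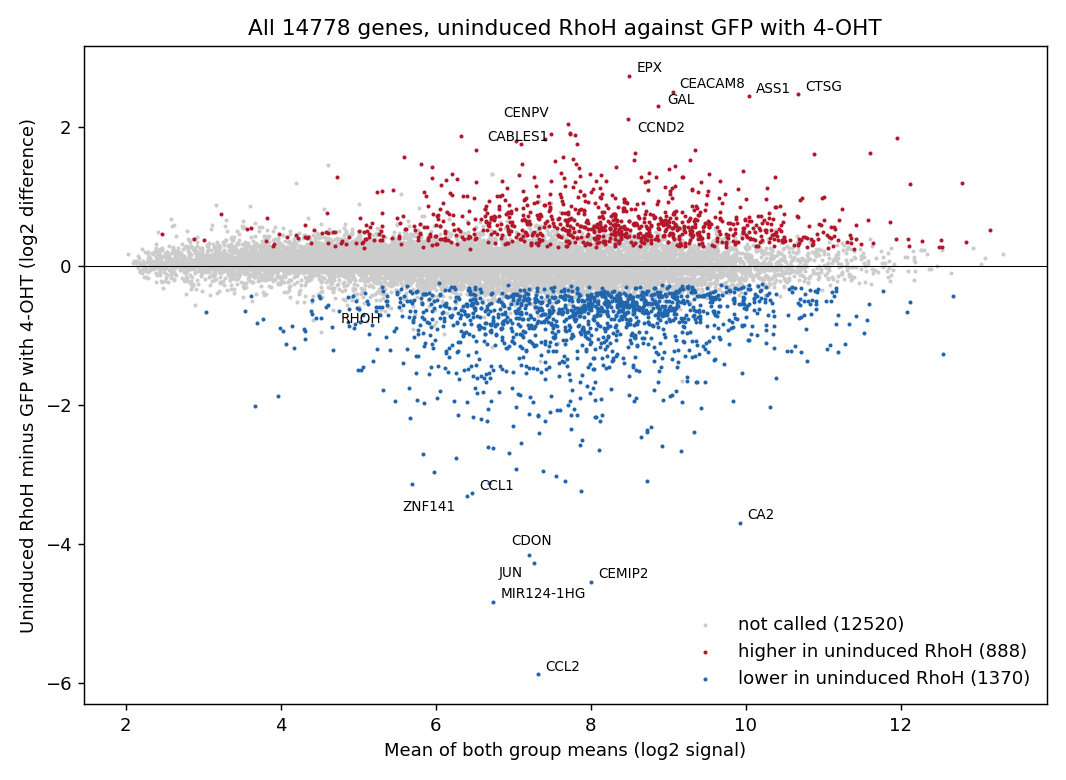
Each point is a gene, with the mean of the uninduced RhoH and GFP group means (log2 signal) on the x axis and uninduced RhoH minus GFP (log2) on the y axis. Red marks the 888 higher and blue the 1370 lower genes at a limma adjusted p under 0.05, grey the others; the lower side reaches -5.87 at CCL2 and the higher side 2.73 at EPX.

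Granule and lineage genes led the higher side. EPX, the eosinophil peroxidase, read 10.02, 10.14 and 9.43 in uninduced RhoH and 7.10, 7.09 and 7.19 in GFP. The difference was 2.73 (6.66-fold, SE 0.18, adjusted p = 7.12e-06). CEACAM8, a granulocyte surface antigen stored in specific granules, read 10.40, 10.30 and 10.23 against 7.83, 7.81 and 7.77 (5.67-fold, adjusted p = 8.73e-07). CTSG, the azurophil protease cathepsin G, read 11.90, 11.91 and 11.92 against 9.36, 9.55 and 9.42 (5.53-fold, adjusted p = 2.32e-06). PRTN3, the azurophil proteinase 3, read 12.88, 12.87 and 12.87 against 11.03, 11.07 and 11.00 (3.57-fold, adjusted p = 1.28e-05). In each of these 4 genes every uninduced array was above every GFP array. Induced RhoH read 9.12 ± 0.25 (SD, n = 3) for EPX, which was between the compared groups, and 10.56, 10.20 and 10.13 for CEACAM8, which was at the level of uninduced RhoH.

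The promoters of CTSG and PRTN3, from 250 bases before to 50 bases after the RefSeq start (GRCh38.p14), are shown because these azurophil protease genes were higher together. CTSG lies at chr14:24576201-24576500 on the minus strand and PRTN3 at chr19:840749-841048 on the plus strand, each written 5′ to 3′ on the strand of the gene.
CTSG: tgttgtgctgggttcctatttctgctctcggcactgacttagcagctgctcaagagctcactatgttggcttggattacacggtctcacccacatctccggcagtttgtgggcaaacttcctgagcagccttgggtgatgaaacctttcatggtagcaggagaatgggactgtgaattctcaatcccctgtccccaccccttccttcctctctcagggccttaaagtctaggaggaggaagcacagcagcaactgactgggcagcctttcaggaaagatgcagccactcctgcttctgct
PRTN3: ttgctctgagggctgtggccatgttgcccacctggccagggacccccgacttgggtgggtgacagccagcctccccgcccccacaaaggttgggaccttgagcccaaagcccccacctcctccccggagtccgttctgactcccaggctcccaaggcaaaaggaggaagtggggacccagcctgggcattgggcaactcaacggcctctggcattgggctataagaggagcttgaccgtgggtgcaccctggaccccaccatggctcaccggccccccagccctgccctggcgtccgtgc
The share of G and C bases was 53% in CTSG and 66.7% in PRTN3, against a median of 63.3% over the promoters of 10719 tested genes. No factor sites were searched for in these promoters, and regulation of the 2 genes was not tested. SPI1, the gene of the myeloid factor PU.1, read 9.07 ± 0.11 and 9.29 ± 0.02 (SD, n = 3) and did not pass the test (-0.22, adjusted p = 0.138). Its uninduced arrays were all below its GFP arrays, as for 18.1% of all genes.

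The remaining 11 of the 15 highest genes had varied roles. ASS1, which makes argininosuccinate for arginine synthesis, read 11.22, 11.37 and 11.21 in uninduced RhoH and 8.67, 8.88 and 8.92 in GFP (5.44-fold, adjusted p = 5.67e-07). GAL, the gene of the neuropeptide galanin, read 10.07, 10.02 and 9.98 against 7.82, 7.69 and 7.63 (4.95-fold). CCND2, cyclin D2, which partners CDK4 and CDK6 in G1, read 9.48, 9.54 and 9.61 against 7.52, 7.40 and 7.38 (4.32-fold). The second and dimmer probe set of CCND2 differed by only 0.78. The receptor tyrosine kinase RET read 7.54, 8.17 and 8.11 against 6.12, 6.17 and 6.15 (3.46-fold). MT2A, a metallothionein, was the most scattered of the 15, at 9.17, 9.05 and 7.85 against 7.03, 6.58 and 6.76 (3.74-fold, SE 0.35, adjusted p = 0.00406). CENPV, CABLES1, MFAP4, ANKRD18A, BICC1 and PIWIL4 differed by 1.82 to 2.04 on the log2 scale.

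The lowest genes differed by far larger amounts, and the largest difference was in a chemokine. CCL2, which attracts monocytes, read 4.41, 4.32 and 4.42 in uninduced RhoH and 10.40, 10.14 and 10.24 in GFP. The uninduced arrays were below the array median and the GFP arrays far above it, a 58.6-fold difference (log2 -5.87, SE 0.45, adjusted p = 1.74e-05). Induced RhoH was scattered between them, at 9.71, 7.32 and 8.18. JUN, a subunit of the AP-1 transcription factor, read 5.12, 5.21 and 5.08 against 9.72, 9.29 and 9.21 (19.3-fold, adjusted p = 2.78e-06), with 8.53, 8.33 and 9.36 in induced RhoH. CCL1, a second chemokine, read 5.05, 5.11 and 4.35 against 8.08, 8.27 and 7.98 (9.64-fold). CA2, a carbonic anhydrase, read 8.05, 8.03 and 8.14 against 11.76, 11.80 and 11.76 (13.0-fold), and its adjusted p of 1.21e-08 was the lowest of the named genes. Its level in induced RhoH, 12.34, 12.39 and 12.51, was above GFP by 0.64 (adjusted p = 0.00172).

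ZNF141 and DPYD, also among the 15 lowest, were apart from GFP in both RhoH groups. ZNF141, a zinc finger gene, read 4.86, 4.44 and 4.96 in uninduced RhoH, 4.86, 4.86 and 4.78 in induced RhoH and 8.01, 8.15 and 8.03 in GFP (9.92-fold between the compared groups, adjusted p = 2.57e-07). DPYD, the enzyme that starts pyrimidine breakdown, read 6.31, 6.24 and 6.22 against 9.55, 9.53 and 9.41 in GFP (9.46-fold, adjusted p = 3.10e-08), with 6.62, 6.82 and 6.79 in induced RhoH. The induced arrays of these genes lay near the uninduced ones: induced RhoH differed from GFP by -3.23 for ZNF141 and -2.75 for DPYD, and from uninduced RhoH by 0.08 (adjusted p = 0.889) and 0.49 (adjusted p = 0.0133). They were not alone: induced RhoH was also below GFP for CEMIP2 (-2.87), LACC1 (-2.54), CDON (-2.38) and GBP4 (-2.35), among others. LACC1 and GBP4 were not called between induced and uninduced RhoH (adjusted p = 0.151 and 0.120). The induced arrays of JUN, CCL1, ANXA2P2 and SIGLEC6 overlapped those of GFP. CEMIP2, a hyaluronan-degrading membrane protein, read 5.81, 6.05 and 5.34 against 10.23, 10.27 and 10.33 (23.3-fold). CDON, a cell surface receptor of the immunoglobulin family, read 5.18, 5.31 and 4.88 against 9.24, 9.29 and 9.33 (17.9-fold). Both groups of arrays were narrow beside these differences. MIR124-1HG, a long noncoding host gene of a microRNA, read 4.45, 4.34 and 4.20 against 9.16, 9.25 and 9.06 (28.4-fold). The remaining 6 were GBP4, LACC1, ANXA2P2, SIGLEC6, PLXNC1 and MIR3975, which were 7.83-fold to 8.77-fold lower. ANXA2P2 is a near-identical copy of ANXA2, so its signal may come from either gene. All 30 genes and RHOH passed the test under every alternative that was run, with adjusted p up to 0.0246.

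**Figure D2:**
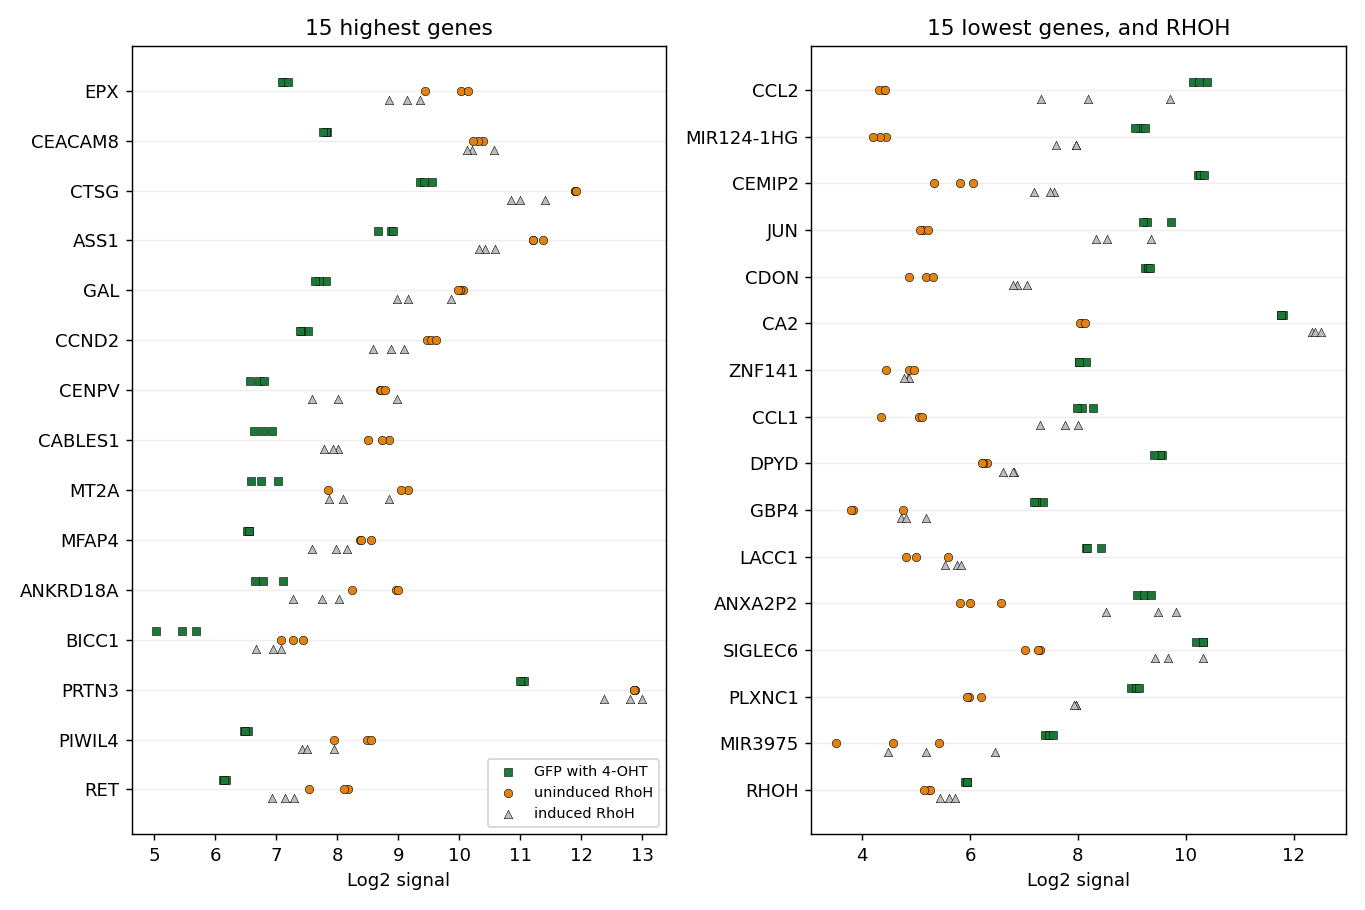
Log2 signal of each array for the 15 highest genes (left) and the 15 lowest genes with RHOH (right); orange circles are uninduced RhoH, green squares GFP with 4-OHT and grey triangles induced RhoH. No orange circle overlaps a green square within a gene, which was a condition for picking the 15 highest and 15 lowest genes. The triangles of CCL2 lie between the circles and the squares, and those of CA2 above the squares. Those of ZNF141 and DPYD lie near the circles.

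Gene lists are set beside the background of 6.01% higher and 9.27% lower calls, or 6.97% and 10.6% among protein-coding genes. The lists and their members were chosen with earlier results of these data known, and they hold some of the genes with the largest differences. Shares above the background are therefore descriptions and not tests. They hold 630 symbols in 29 lists, and 422 symbols had a named probe set (the rest were not analysed). Over the distinct measured members 59 were higher and 111 were lower. Without the 2 RhoH replicate 1 arrays 70 were higher and 104 lower. In bulk samples fewer cells of a type and less RNA per cell cannot be told apart.

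**Figure D3:**
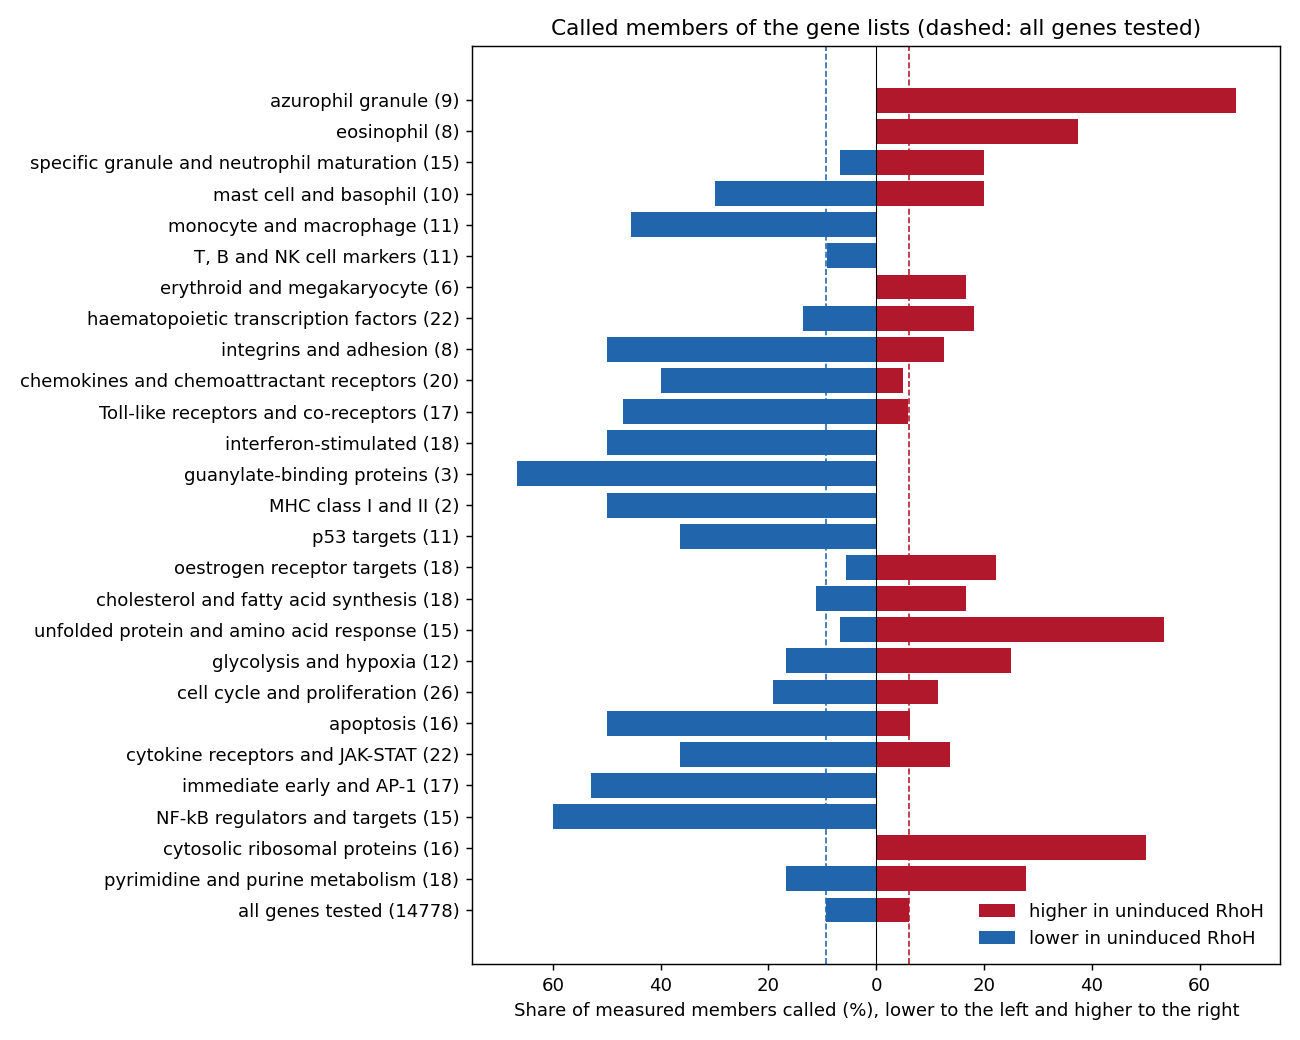
Share of the measured members of each list plotted (their number in brackets) called higher (red, to the right) or lower (blue, to the left) in uninduced RhoH than in GFP, in percent. The dashed lines mark 6.01% and 9.27% for all genes tested; azurophil granule genes reach 66.7% on the right and NF-kB genes 60.0% on the left, where the 3 guanylate-binding protein genes reach 66.7%. The lists were chosen with earlier results of these data known.

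Azurophil granule genes were the list with the largest share of higher members, 6 of 9, with none lower and a median of 0.58. Beside CTSG and PRTN3, MPO (myeloperoxidase) read 13.36, 13.41 and 13.40 against 12.26, 12.17 and 12.16 (2.28-fold, adjusted p = 5.83e-06). AZU1, the antimicrobial protein azurocidin, read 10.96, 11.01 and 11.09 against 9.81, 9.66 and 9.74 (2.43-fold). AZU1 and PRTN3 are neighbours on the chromosome. GFI1, on the list as a repressor needed for granulocyte formation rather than a granule protein, was 1.50-fold higher, and its value is the list median. BPI, a protein that binds bacterial endotoxin, was 1.35-fold higher (adjusted p = 0.0182). The call of BPI was lost when any of 5 single arrays was left out, with adjusted p up to 0.0733. LYZ, SRGN and CTSC did not pass the test, with differences of 0.22, 0.17 and -0.00.

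Of 8 measured eosinophil genes 3 were higher: EPX, CLC and PRG3. CLC, the protein of Charcot-Leyden crystals, read 9.23, 8.58 and 8.28 against 7.01, 7.05 and 6.78 (3.36-fold, SE 0.33, adjusted p = 0.00497). PRG3, a granule protein related to major basic protein, was dim at 5.26 ± 0.18 and 4.75 ± 0.12 (SD, n = 3), below the array median on all 6 compared arrays. Its call (adjusted p = 0.0240) was lost in 6 alternatives, among them the omission of uninduced replicate 1 or 2 or of GFP replicate 1 or 2 (up to 0.105). The other 5 members differed by -0.12 to 0.05.

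Among 15 genes of specific granules and neutrophil maturation 3 were higher and 1 was lower. The higher members were the related adhesion genes CEACAM8, CEACAM6 (9.71, 9.81 and 9.93 against 8.48, 8.61 and 8.52, 2.43-fold) and CEACAM1 (1.51-fold). CEACAM1 and CEACAM8 are neighbours, and probes of such related genes can cross-react. HP, the haemoglobin-binding protein haptoglobin, moved the other way, at 7.62, 7.73 and 7.56 against 10.12, 10.20 and 10.34 (5.99-fold lower, adjusted p = 2.46e-07). LTF, a defining specific granule protein, read 5.07 ± 0.10 and 5.13 ± 0.16 (SD, n = 3), below the array median on all 6 arrays.

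Mast cell and basophil genes were split. SIGLEC6, a sialic acid receptor, read 7.30, 7.01 and 7.26 in uninduced RhoH against 10.18, 10.33 and 10.32 in GFP (8.50-fold lower). KIT, the stem cell factor receptor, was 2.30-fold lower, from a level below the array median on all 6 arrays. GATA2, a factor of mast cells and stem cells, was 1.29-fold lower (adjusted p = 0.0344), a call that 5 of the single-array omissions removed. CPA3, mast cell carboxypeptidase, read 7.31, 7.45 and 7.68 against 6.17, 6.52 and 6.39 (2.17-fold higher), and the tryptase gene TPSAB1 was 1.51-fold higher. TPSAB1 lost its call without uninduced replicate 1, GFP replicate 2 or GFP replicate 3 (adjusted p up to 0.0861), and its near-identical neighbour TPSB2 differed by -0.03.

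Of 11 monocyte and macrophage genes 5 were lower and none was higher (median -0.31). The 6 that did not pass the test differed by -0.31 to 0.22. CD86, a T cell costimulator of antigen-presenting cells, read 5.75, 5.75 and 5.30 against 8.19, 8.40 and 8.29 (6.45-fold lower, adjusted p = 3.91e-06). CD14, the endotoxin co-receptor, read 5.67, 5.34 and 5.16 against 7.06, 6.51 and 7.01 (2.77-fold lower, adjusted p = 0.00126). CD68, a lysosomal protein of macrophages, read 9.06, 9.10 and 8.91 against 10.44, 10.39 and 10.46 (2.65-fold lower). CD4 and FCN1 were 1.53-fold and 1.45-fold lower, and CSF1R, the receptor of macrophage colony-stimulating factor, did not pass the test (-0.31, adjusted p = 0.0922). Summed over the monocyte markers CD14, CSF1R and FCN1, log2 signals were 19.6 to 19.8 in uninduced RhoH and 21.6 to 22.5 in GFP. The part of a few monocyte-like cells in these values was not tested.

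Of 22 haematopoietic transcription factors 4 were higher and 3 lower (18.2% and 13.6%, against 6.01% and 9.27% of all genes). MYC, which drives growth and proliferation, read 11.64, 11.67 and 11.73 against 10.18, 9.97 and 10.08 (3.04-fold, adjusted p = 9.37e-06), with 10.83 ± 0.21 (SD, n = 3) in induced RhoH. MYB, a factor of immature progenitors, read 11.18, 11.16 and 11.20 against 10.24, 10.17 and 10.27 (1.93-fold). GFI1 and ERG were the other higher members, and ERG lost its call without uninduced replicate 3, GFP replicate 2 or GFP replicate 3 (adjusted p up to 0.0716). BCL6 was 1.57-fold lower. The call of EGR1, an immediate early factor used in monocyte differentiation, was lost in 10 alternatives, among them the omission of any single RhoH array. It was kept when any single GFP array was left out. GFP replicate 1 read 9.59 against 7.85 and 7.80 in the other GFP arrays, and uninduced RhoH read 6.88, 7.28 and 6.77. Without uninduced replicate 3 the list had 1 lower call. Of 11 T, B and NK cell genes LAT, a signalling adaptor, was the sole call (7.01, 6.74 and 6.60 against 9.32, 9.48 and 9.50, 6.29-fold lower). That is 9.09% of the list, near the 9.27% lower over all genes. Of 6 erythroid and megakaryocyte genes KLF1 was the sole call (1.44-fold higher, adjusted p = 0.0459), and it was lost without any of the 6 arrays of the compared groups.

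**Figure D4:**
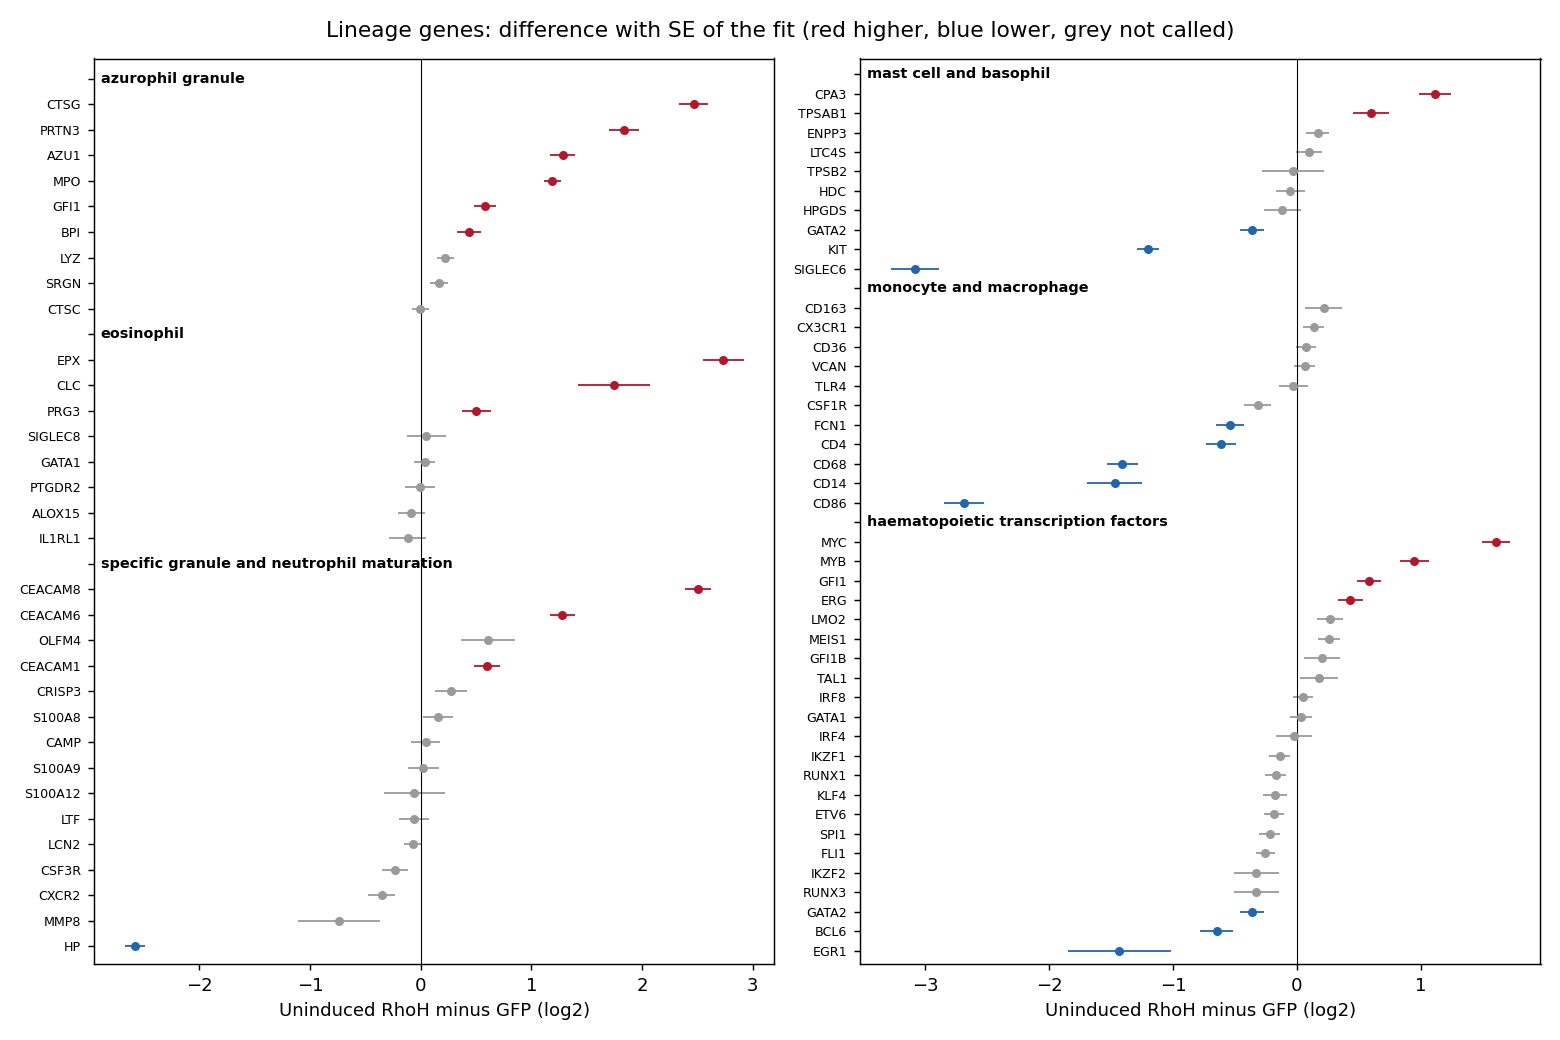
Uninduced RhoH minus GFP (log2) with the SE of the limma fit for every measured member of the lineage lists; red points were called higher, blue lower and grey not called. The azurophil panel lies at or right of 0, from -0.00 to 2.47, and the monocyte panel has its 5 calls left of 0.

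Chemokines and chemoattractant receptors were lower in 8 of 20 measured members and higher in 1 (median -0.31), and the count of lower members stayed at 8 or 9 when single arrays were left out. The ligands were CCL2, CCL1, CXCL8 and CCL4. CXCL8, the neutrophil attractant interleukin 8, read 8.81, 9.27 and 8.50 against 11.67, 10.36 and 10.39 (3.86-fold lower, adjusted p = 0.00259), and CCL4 was 2.82-fold lower. CCL3, which neighbours CCL4, read 5.53 ± 0.21 and 5.57 ± 0.16 (SD, n = 3). The receptors were FPR2, CCR1, C5AR1 and C3AR1. FPR2, a receptor for formyl peptides, read 5.05, 5.67 and 5.57 against 8.08, 8.01 and 8.06 (6.14-fold lower, adjusted p = 3.88e-06), while its neighbours FPR1 and FPR3 differed by -0.36 and 0.06 without passing the test. FPR3 was dim, at 4.56 ± 0.19 and 4.50 ± 0.22 (SD, n = 3), below the array median throughout. The chemokine receptor CCR1 (3.90-fold) and the complement receptor C5AR1 (3.69-fold) were lower by similar amounts. CXCR4, the receptor that holds progenitors in the marrow, was the higher member (10.51, 10.71 and 10.73 against 10.14, 9.81 and 9.90, 1.62-fold). CXCL8, CCL4, FPR1, FPR3, CCR1, C5AR1, C3AR1 and CXCR4 were named after their values were seen.

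Of 17 genes of Toll-like receptors and their co-receptors and adaptors 8 were lower and 1 was higher. The lower members were TLR1, TLR3, TLR6, TLR8, CD14, LY96, MYD88 and IRAK3. TLR6, which pairs with TLR2 to sense bacterial lipopeptides, read 4.42, 4.20 and 4.83 against 7.20, 7.24 and 7.11 (6.49-fold lower, adjusted p = 1.86e-06). TLR1, the alternative partner of TLR2, read 5.46, 5.88 and 5.88 against 7.54, 7.85 and 7.69 (3.86-fold lower). TLR2 itself read 7.34 ± 0.30 and 7.31 ± 0.13 (SD, n = 3, adjusted p = 0.929). TLR10, which neighbours TLR1, differed by 0.01 but was dim, at 4.33 ± 0.03 and 4.33 ± 0.11 (SD, n = 3), below the array median throughout. The endosomal receptor TLR3 was 1.64-fold lower. Chosen after their values were seen, MYD88, the adaptor of most of these receptors, was 2.60-fold lower (6.69, 7.24 and 6.98 against 8.38, 8.36 and 8.31), and LY96, the partner of TLR4, was 1.79-fold lower while TLR4 differed by -0.03. UNC93B1, which carries endosomal receptors to their compartment, was the higher member (1.37-fold).

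Interferon-stimulated genes were lower in 9 of 18 members, with none higher and a median of -0.44. IRF1, a transcription factor of the interferon response, read 6.50, 7.40 and 7.13 against 9.25, 9.21 and 9.25 (4.70-fold lower, adjusted p = 0.000147). IFIT3, an antiviral effector, read 4.68, 4.08 and 4.53 against 6.26, 6.21 and 6.15 (3.43-fold lower), and its list neighbours IFIT1 and IFIT2 were 1.70-fold and 1.38-fold lower. IFIT2 lost its call without uninduced replicate 3, GFP replicate 1 or GFP replicate 2 (adjusted p up to 0.0722). RIGI, a sensor of viral RNA, read 6.65, 6.69 and 6.66 against 7.67, 7.82 and 7.75 (2.11-fold lower). ISG15, a ubiquitin-like product of the same response that was named after its value was seen, read 7.18 ± 0.06 and 7.08 ± 0.05 (SD, n = 3) and did not pass the test.

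Of the 3 measured guanylate-binding proteins, GTPases that act against intracellular microbes, 2 were lower. GBP4 read 4.75, 3.83 and 3.79 in uninduced RhoH against 7.36, 7.23 and 7.19 in GFP (8.77-fold), and GBP3 read 5.45, 4.51 and 4.71 against 7.53, 7.72 and 7.70 (6.77-fold, adjusted p = 3.71e-05). In both genes uninduced replicate 1 was the highest of its group and still below every GFP array. GBP5, the neighbour of GBP4, was dim at 4.03 ± 0.01 and 4.01 ± 0.05 (SD, n = 3), where the lowest array median was 5.43. The promoters of GBP4 (chr1:89198893-89199192) and GBP3 (chr1:89022817-89023116), both on the minus strand in RefSeq GRCh38.p14 and written 5′ to 3′ on it, are shown because the genes were lower together.
GBP4: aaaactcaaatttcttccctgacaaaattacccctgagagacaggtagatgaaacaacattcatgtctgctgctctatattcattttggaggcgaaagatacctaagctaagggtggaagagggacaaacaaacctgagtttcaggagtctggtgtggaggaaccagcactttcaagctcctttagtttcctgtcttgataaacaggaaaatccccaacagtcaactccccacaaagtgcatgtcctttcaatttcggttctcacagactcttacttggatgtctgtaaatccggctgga
GBP3: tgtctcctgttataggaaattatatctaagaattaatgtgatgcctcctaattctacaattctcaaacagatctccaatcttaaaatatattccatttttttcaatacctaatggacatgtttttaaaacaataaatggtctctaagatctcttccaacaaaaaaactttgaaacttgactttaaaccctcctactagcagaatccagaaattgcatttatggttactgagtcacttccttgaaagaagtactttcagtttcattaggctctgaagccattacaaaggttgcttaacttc
The share of G and C bases was 43.3% in GBP4 and 32.0% in GBP3.

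Immediate early and AP-1 genes were lower in 9 of 17 members and higher in none (median -0.63). Beside JUN, JUND read 7.93, 8.34 and 8.35 against 10.20, 9.91 and 9.91 (3.48-fold lower, adjusted p = 8.63e-05) and JUNB read 8.59, 8.97 and 8.72 against 10.30, 9.89 and 9.91 (2.42-fold lower, adjusted p = 0.00386). FOS, which pairs with the JUN proteins, read 6.22, 7.23 and 6.61 against 8.73, 7.86 and 7.92 (2.79-fold lower, adjusted p = 0.0303), and leaving out any of 5 of the 6 compared arrays removed its call (adjusted p up to 0.123). GFP replicate 1 was the highest GFP array for all 4 of these genes. Without single arrays the list had 6 to 8 lower calls. Of 15 NF-kB regulators and targets 9 were lower and none higher (median -0.64), among them CCL2, IRF1 and CXCL8. The subunit gene REL was 1.64-fold lower (8.88 ± 0.16 against 9.59 ± 0.01, SD, n = 3), while NFKB1 and NFKB2 did not pass the test (0.25 and -0.27). Over all lists 28 symbols belong to more than 1, CCL2, IRF1 and CXCL8 included, so the lists are not independent of each other.

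**Figure D5:**
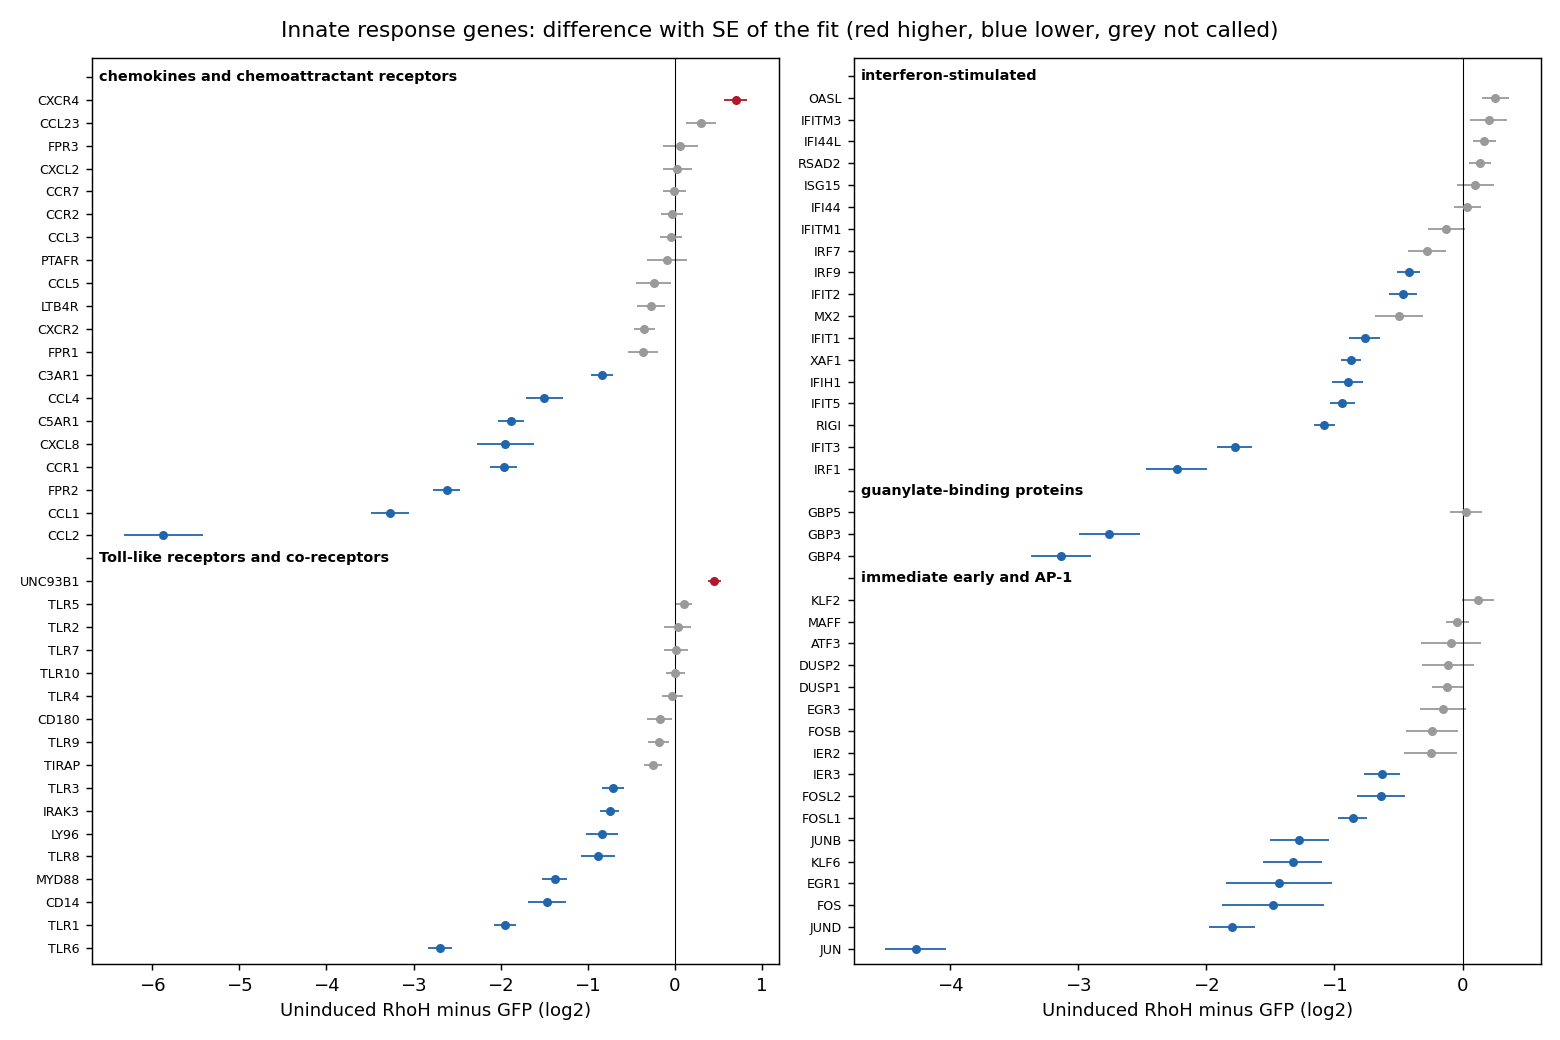
Uninduced RhoH minus GFP (log2) with the SE of the limma fit for the measured members of innate response lists; red points were called higher, blue lower and grey not called. Called points lie left of 0 apart from CXCR4 and UNC93B1, and the grey points reach -0.50 at MX2, farther than the called IFIT2 and IRF9.

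Of 8 integrin and adhesion genes 4 were lower and 1 was higher. Beside CDON, ICAM1, the ligand of leukocyte integrins, read 5.90, 5.98 and 5.88 against 6.81, 6.94 and 6.86 (1.93-fold lower), and SELPLG and CD44 were 1.55-fold and 1.52-fold lower. DSG2, a desmosomal cadherin, read 7.61, 8.16 and 8.17 against 6.30, 6.22 and 6.17 (3.36-fold higher).

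Of 15 amino acid synthesis and stress genes 8 were higher and CRELD2 was lower (median 0.54). The counts did not change when any single array was left out. Beside ASS1, ASNS, which makes asparagine, read 8.45, 8.25 and 8.19 against 6.64, 6.87 and 6.85 (2.85-fold, adjusted p = 4.07e-05). PSAT1 and PHGDH, enzymes of serine synthesis named after their values were seen, were 2.57-fold and 2.33-fold higher. CRELD2, a protein of the endoplasmic reticulum induced by stress, read 6.57 ± 0.08 against 8.92 ± 0.07 (SD, n = 3; 5.07-fold lower, adjusted p = 1.08e-06). The factor genes ATF4 and DDIT3 did not pass the test (0.12 and -0.43, adjusted p = 0.429 and 0.0645). MANF, another secretory pathway protein induced by stress and also chosen after its value was seen, was 2.34-fold higher.

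Of 18 cholesterol and fatty acid genes 3 were higher and 2 lower. SQLE, squalene epoxidase, read 9.55, 9.69 and 9.75 against 8.57, 8.55 and 8.43 (2.22-fold). HMGCS1 and MSMO1 were 1.35-fold and 1.30-fold higher, but without any single GFP array or without uninduced replicate 2 the list had 1 higher call, and without the RhoH replicate 1 arrays it had 6. INSIG1, which retains the sterol sensor, was 1.81-fold lower and FASN, fatty acid synthase, 1.64-fold lower. In glycolysis and hypoxia 3 of 12 were higher, BNIP3 (1.77-fold), VEGFA (1.71-fold) and LDHA (1.27-fold), and HK1 (1.98-fold) and TPI1 (1.55-fold) were lower. LDHA lost its call in 5 alternatives, among them the omission of uninduced replicate 2 or 3 or of GFP replicate 1 or 3 (adjusted p up to 0.110). HK2 and GPI differed by -0.44 and 0.04 without passing the test.

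In nucleotide metabolism DPYD was accompanied by SAMHD1, a dNTP hydrolase (8.56, 9.14 and 9.08 against 10.03, 10.05 and 10.03, 2.16-fold lower), and by CDA, cytidine deaminase (1.82-fold lower), while 5 of the 18 genes were higher. IMPDH1, a rate-limiting enzyme of guanine nucleotide synthesis, read 9.35, 9.59 and 9.45 against 8.61, 8.54 and 8.47 (1.90-fold). The other higher members were PNP, HPRT1, IMPDH2 and PPAT. Without single arrays of the compared groups 3 members were higher at the fewest, and without both RhoH replicate 1 arrays 8. Ribosomal protein genes were higher in 8 of 16 members and lower in none (median 0.30). RPL36 read 10.97, 10.79 and 10.86 against 10.03, 9.99 and 10.00 (1.82-fold, adjusted p = 0.000511), RPL22 was 1.42-fold and RPS14 1.30-fold higher. This count was fragile: it was 2 without uninduced replicate 3 or any GFP array, 3 without uninduced replicate 2, and 12 without the RhoH replicate 1 arrays.

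Among 18 oestrogen receptor target genes 4 were higher and 1 lower in uninduced RhoH, the cells without 4-OHT. Activity of the receptor was not tested. These shares were 22.2% and 5.56%, against 6.01% and 9.27% of all genes. The defining targets TFF1, PGR and GREB1 did not pass the test and differed by 0.08, 0.06 and 0.12. RET and MYB, described above, were higher, as were ADCY9 (1.65-fold) and XBP1 (1.46-fold). SIAH2, a ubiquitin ligase, read 9.40, 9.29 and 9.20 against 11.35, 11.32 and 11.31 (4.09-fold lower, adjusted p = 4.82e-06).

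Cell cycle genes were called in both directions, 3 higher and 5 lower of 26 (11.5% and 19.2%, against 6.01% and 9.27% of all genes). CCND2 was higher and CCND3, cyclin D3, was lower (6.65, 6.87 and 6.67 against 7.91, 7.88 and 7.82, 2.20-fold). Their kinase CDK6 read 10.68, 10.78 and 10.77 against 9.74, 9.81 and 9.81 (1.94-fold higher). The proliferation genes MKI67 and TOP2A were 1.29-fold and 1.25-fold lower. MKI67 lost its call without any 1 of the 6 compared arrays (adjusted p up to 0.101), and TOP2A without uninduced replicate 3 or any GFP array (up to 0.0946). CCNA2 differed by -0.02. Without uninduced replicate 3 or any GFP array the list had 3 lower calls.

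Apoptosis genes were lower in 8 of 16 members and BCL2 was higher. BCL2, which blocks mitochondrial apoptosis, read 9.86, 10.06 and 10.11 against 9.06, 9.06 and 8.86 (2.02-fold higher, adjusted p = 0.000116). APAF1, the core of the apoptosome, read 8.05, 8.52 and 8.58 against 9.70, 9.69 and 9.79 (2.54-fold lower), and BIRC2, an inhibitor of apoptosis, was 2.28-fold lower. BCL2L1 and MCL1, relatives of BCL2 that also protect cells, were 1.73-fold and 1.32-fold lower, so that protective and lethal genes were on the same side. The count of lower members was 4 without uninduced replicate 1 or 3, GFP replicate 1 or 2, or both RhoH replicate 1 arrays, and 5 without GFP replicate 3. MCL1 was among the calls lost. Of 11 p53 targets 4 were lower. TP53INP1, a stress-induced p53 target, read 5.15, 5.70 and 5.87 against 8.50, 8.47 and 8.52 (7.58-fold, adjusted p = 3.91e-06), SESN1 was 2.22-fold and RRM2B 1.74-fold lower. HL-60 cells are known to lack p53, and the cause of the differences in these genes was not tested.

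Of 22 cytokine receptor and JAK-STAT genes 8 were lower and 3 higher. IL18R1, the interleukin 18 receptor, read 5.95, 5.79 and 5.71 against 7.05, 7.35 and 7.32 (2.68-fold lower), the survival kinase PIM1 was 2.02-fold lower and IFNGR1, the interferon gamma receptor, 1.99-fold lower. The higher members were FLT3, a receptor of early progenitors (8.18, 8.79 and 8.87 against 7.66, 7.58 and 7.63, 1.98-fold), STAT5B and PIM2 (both 1.54-fold). Of MHC genes 2 were measured: TAPBP, which loads peptides on class I molecules, was 2.00-fold lower and B2M differed by -0.15 (adjusted p = 0.368), with -0.62 on its second probe set.

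Of 1022 microRNA genes on the array 37 were called, 23 lower (2.25%) and 14 higher (1.37%), smaller shares than over all genes (9.27% and 6.01%). Whether these probe sets read the mature microRNA, its precursor or the transcript around it is not known, so levels of mature microRNA are not given. Mature sequences are shown for the 4 microRNA genes with the largest lower differences, each of which overlaps a called gene, and for the 3p arms of 2 microRNAs known from myeloid cells, with the seed (bases 2 to 8) in capitals, from RefSeq.
hsa-miR-3975: uGAGGCUAaugcacuacuucac
hsa-miR-3671: aUCAAAUAaggacuagucugca
hsa-miR-4802-3p: uACAUGGAuggaaaccuucaagc
hsa-miR-4802-5p: uAUGGAGGuucuagaccauguu
hsa-miR-4439: gUGACUGAuaccuuggaggcau
hsa-miR-142-3p: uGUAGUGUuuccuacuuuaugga
hsa-miR-223-3p: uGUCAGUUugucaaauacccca
No 2 of these share a seed. MIR3975 read 3.51, 4.57 and 5.42 against 7.39, 7.46 and 7.55 (7.83-fold lower, SE 0.51, adjusted p = 0.00316), the widest spread among the named genes. GALNT1, which overlaps it in RefSeq, was also lower (log2 difference -1.19). MIR3671 differed by -2.07 and JAK1, which overlaps it, by -0.68. MIR4802 differed by -2.01 and RBM47, which overlaps it, by -1.24. MIR4439 differed by -1.86 and DOCK10, which overlaps it, by -1.94. Of the 23 lower microRNA genes 17 overlap a measured gene, strand not considered. For 13 of these microRNA genes the overlapping gene was lower and for none higher, with ZBTB20 counted for both MIR4796 and MIR568. Of the 14 higher ones 6 overlap a measured gene, and 5 of those genes were higher and none lower. MIR142, a microRNA gene of blood cells, was higher by 1.27 (adjusted p = 0.00514), and the overlapping noncoding gene TSPOAP1-AS1 by 0.72. MIR223, which marks the granulocyte lineage, was higher by 0.59 (10.42 ± 0.04 against 9.84 ± 0.14, SD, n = 3, adjusted p = 0.00185).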

How the data were processed

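Total RNA of HL-60 clone 15 cells was hybridised to Affymetrix whole-transcript arrays. The authors deposited 1 table of log2 signals for 43550 probe sets, made with Affymetrix Power Tools, RMA and limma per the submitters' processing notes, which give no versions. RMA shrinks differences of dim genes. The platform annotation named 15659 probe sets with 1 gene, 0 with several and 27891 with none, and all named ones matched RefSeq (GRCh38.p14).

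limma 3.58.1 in R 4.3.3 was fitted with 3 group means over 9 arrays (6 residual degrees of freedom, prior 3.86), without further normalization, and p-values were adjusted by Benjamini-Hochberg over 14778 genes. On simulated data it recovered 79% of genes changed by 1 on the log2 scale and 42% changed by 0.5, with 5 false calls. Errors are SD over arrays or SE of the fit. The number of arrays limits the precision.

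Named are RHOH, the 15 highest and 15 lowest called genes with non-overlapping arrays, and per list the 3 largest calls and the first 3 members. Others are named where the members called one way number 5 or fewer, or after their values were seen, as are list members set beside a neighbour. The members and lists were chosen with earlier results of these data known. The results of 3 lists, which the totals over lists include, are not reported here. Promoters and microRNAs were matched by symbol: 20 of the 31 named genes had a promoter and 35 of the 37 called microRNA genes a mature sequence. Alternatives were another array set, normalization, centring, array weights, a filter on dim genes, all probe sets, an intensity trend, a replicate block and arrays left out.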

Additional observations from a re-analysis of the deposited data

How the results depend on the processing

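With all arrays 2258 genes were called, 888 of them higher. Array weights gave 4326 calls (2358 higher) and 100 higher list members in place of 59, and renormalized quantiles gave 1342 higher genes. With weights 54.5% of calls were higher and with renormalized quantiles 48.0%, against 39.3%. Leaving out single arrays gave 1450 to 2670 calls, 504 to 1140 higher and 922 to 1530 lower, and 133 to 193 list members called, 42 to 75 of them higher and 91 to 118 lower. The RHOH difference was -0.76 to -0.68 in all alternatives run. Of 186 single genes examined 40 lost their call under some alternative and 0 changed direction.

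The labels do not say what a shared replicate number marks. Deviations of same-numbered uninduced RhoH and GFP arrays correlated at 0.13, 0.15 and -0.03, against -0.16 to 0.09 for differently numbered ones. Those of uninduced and induced RhoH correlated at 0.54, 0.37 and 0.07, against -0.50 to 0.40. For induced RhoH and GFP the values were 0.10, 0.15 and 0.01, against -0.13 to 0.01. Whether arrays of the same number share a batch was not tested, and the main fit has no replicate block. With the replicate block 2558 genes were called, and among list members MCL1 lost its call. At 3 arrays a group, differences near 0.5 are often missed, and signals near the background are compressed.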
